A study of Mus musculus with 28 samples.

Results

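The mouse mitochondrial genome carries its own small set of genes, and this account follows them through 28 nuclear RNA libraries. Members are all genes of the count tables whose name begins with mt-, and the rule found 37 of 41549 genes: 13 messenger RNAs, 2 ribosomal RNAs and 22 transfer RNAs. All 37 matched the GRCm38 annotation of the mitochondrial chromosome by gene identifier, 28 of them on the plus strand and 9 on the minus strand.

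Mitochondria transcribe both strands of their circular DNA into long precursors. Transfer RNAs lie between most of the other genes, and their excision releases the messenger and ribosomal RNAs. The messenger RNAs encode core subunits of the respiratory chain and of the ATP synthase, which depend on many further subunits encoded in the nucleus. These RNAs are made and used inside mitochondria, outside the nucleus, and neurons hold many mitochondria in their soma and processes.

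The tissue was motor cortex, taken from 7 mice (17 to 23). Each animal carried 2 adeno-associated virus vectors for the nuclease Cas9. The vector AAV-Cas9-miR-124-empty was given on the left and on the right AAV-Cas9-miR-124-g4, so that vector and side cannot be told apart, and no group was without Cas9 vector. Nuclei of tissue fixed with 1% PFA were stained for the HA tag of Cas9 and sorted into HA-positive and HA-negative nuclei, which gave 7 libraries in each of 4 groups: HA-positive nuclei with the empty or the g4 vector, and HA-negative nuclei with either. The labels give no strain, age or sex, no promoter for Cas9 and no meaning for g4.

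Total counts per library ranged from 248612 to 902944 and detected genes from 8687 to 13668. Of the HA-positive libraries, those of animals 17, 21 and 22 with the empty vector and of animal 18 with g4 had fewer than 10000 detected genes. Animals 17 to 20 had counts in 4 Y-linked genes, while animals 21 to 23 had counts of Xist, the RNA that silences an X chromosome. Both kinds were at clear levels in 1 library, g4 HA-positive of animal 19, with 614 CPM of Xist (CPM, counts scaled to a common library size) where the other 15 libraries of animals 17 to 20 had 0, and 45.7 CPM of the Y-linked genes. The same library held 1342 CPM of oligodendrocyte markers in sum, against 41.0 to 202 in the other 13 HA-positive libraries, and the main results it touches are also given without it. A trace of Y-linked counts, 3.71 CPM, was in the empty HA-negative library of animal 22.

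The members lie close together on the chromosome and in places share bases, which bears on how a read is assigned. The sequences below, from the GENCODE M21 transcripts of GRCm38, show the 3 longest overlaps, each written along the plus strand with the shared bases in capitals.
mt-Atp8 and mt-Atp6, chrM:7910-7969: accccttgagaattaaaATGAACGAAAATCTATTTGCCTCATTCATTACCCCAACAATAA
mt-Nd4l and mt-Nd4, chrM:10134-10173: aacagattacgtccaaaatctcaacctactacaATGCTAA
mt-Nd5 and mt-Nd6, chrM:13526-13565: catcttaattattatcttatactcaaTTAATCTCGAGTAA

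The mt-Atp8 and mt-Atp6 genes, which encode ATP synthase subunits, share 43 bases, 21.1% of mt-Atp8 and 6.46% of mt-Atp6. In the capitals the start codon of mt-Atp6 opens the shared stretch and the stop codon of mt-Atp8 closes it. The mt-Nd4l and mt-Nd4 genes of complex I share 7 bases in the same direction. The mt-Nd5 and mt-Nd6 genes, also of complex I, overlap by 14 bases at their ends from opposite strands, and mt-Nd6 is the 1 messenger RNA on the minus strand. How the authors' counting treated reads over shared bases and from either strand is not given in the sources used here.

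The transfer RNA genes with the most counts are also shown. Among members with enough counts to be tested, the HA-positive and HA-negative libraries stood furthest apart in them by log2 fold change. Each is written 5′ to 3′ along its own strand.
mt-Tg (glycine), chrM:9391-9458, plus strand: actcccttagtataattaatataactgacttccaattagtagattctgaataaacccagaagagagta
mt-Tp (proline), chrM:15356-15422, minus strand: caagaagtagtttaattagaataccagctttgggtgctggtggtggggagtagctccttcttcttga
mt-Tv (valine), chrM:1025-1093, plus strand: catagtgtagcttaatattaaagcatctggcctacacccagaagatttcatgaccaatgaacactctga

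Some members also have copies in the nuclear genome. Of the 15 messenger and ribosomal RNA genes, 9 matched 11 annotated nuclear pseudogenes at 95% identity or more over at least 50 bases. Gm10925 matched mt-Atp6 without a mismatch over 678 bases, Gm28661 matched mt-Co2 over 681 and Gm28439 matched mt-Nd4 over 876. None of these pseudogenes is a row of the count tables (0 of 11), so counts of mt-Atp6, mt-Co1, mt-Co2, mt-Co3, mt-Nd2, mt-Nd3, mt-Nd4, mt-Nd4l and mt-Nd5 are uncertain to the extent that reads of the copies were assigned to them.

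Together the 37 genes held a small part of every library. Their share of all counts was 2.23% ± 0.37 (SD) over the 28 libraries and ranged from 1.66% to 3.13%, which is 5403 to 20813 counts per library. The 95% Wilson score interval of a share had a half-width of at most 0.0583 percentage points. That interval covers counting error only and was narrower than the SD between libraries.

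In empty HA-positive nuclei the shares of animals 17 to 23 were 2.63%, 2.42%, 2.49%, 2.41%, 1.66%, 1.78% and 2.17%. In g4 HA-positive nuclei they were 2.69%, 3.06%, 2.31%, 2.12%, 1.98%, 3.13% and 2.58%. The empty vector libraries of animals 21 and 22 were the lowest of the 14 HA-positive libraries, and the g4 libraries of animals 18 and 22 the highest. In empty HA-negative nuclei the shares were 2.09%, 1.75%, 2.12%, 2.00%, 1.90%, 2.26% and 2.26%, and in g4 HA-negative nuclei 2.56%, 2.02%, 1.69%, 2.38%, 2.01%, 2.13% and 1.94%. All 4 groups overlapped, as the plot of shares by library shows, and the HA-positive groups spread more widely than the HA-negative ones.

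**Figure D1:**
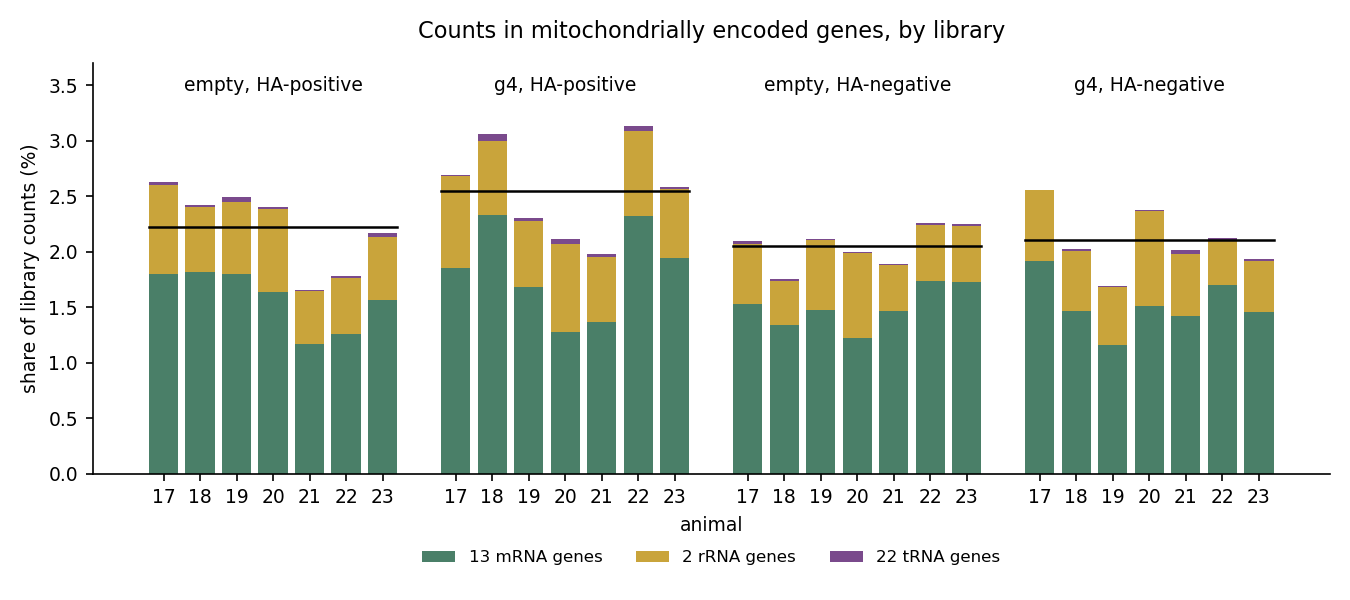
Share of library counts in the 37 mitochondrially encoded genes, as a percent of all counts, for each animal in the 4 groups, stacked by messenger RNA, ribosomal RNA and transfer RNA genes; the black line is the group mean. The g4 HA-positive mean of 2.55% is the highest and the empty HA-negative mean of 2.05% the lowest, with overlapping libraries.

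The group means were 2.22% ± 0.37 (SD, n = 7) in empty HA-positive, 2.55% ± 0.45 in g4 HA-positive, 2.05% ± 0.19 in empty HA-negative and 2.10% ± 0.29 in g4 HA-negative nuclei. In HA-positive nuclei the share was higher with g4 in 5 of 7 animals, with a ratio of means of 1.15. In HA-negative nuclei it was higher with g4 in 4 of 7 animals, with a ratio of 1.02, and on the log2 scale this ratio lay between -0.01 and 0.09 over all alternatives. The HA-positive share exceeded the HA-negative share in 4 of 7 animals with the empty vector (ratio 1.08) and in 5 of 7 with g4 (ratio 1.21). In HA-positive nuclei the log2 ratio of g4 to empty was 0.20. It was 0.10 without animal 22, 0.06 without the libraries under 10000 detected genes and 0.22 without the g4 library of animal 19. The log2 ratio of HA-positive to HA-negative nuclei was 0.11 with the empty vector (0.06 to 0.21 over all alternatives) and 0.28 with g4 (0.22 to 0.35). These shares are sums over the members and were not tested. In bulk libraries fewer nuclei of a type and less RNA per nucleus cannot be told apart.

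Since mitochondrial RNA lies outside the nucleus, the messenger RNAs of cytosolic ribosomal proteins, which are also abundant in cytoplasm, were set beside it. Their genes were picked by name (Rpl or Rps and a digit, Rpsa or Rplp). The pick also took in rows of other kinds, such as Rps6ka5, which is not a ribosomal protein gene, and rows with -ps in their name. The genes so picked took 0.47% ± 0.041 of counts in empty HA-positive, 0.49% ± 0.068 in g4 HA-positive, 0.48% ± 0.045 in empty HA-negative and 0.50% ± 0.061 in g4 HA-negative nuclei. Their group means thus lay within 1 SD of each other. The part of carried cytoplasm in the mitochondrial share was not tested.

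Messenger RNAs made up 71.8% ± 4.8 of the mitochondrial counts (SD over 28 libraries), the 2 ribosomal RNAs 27.2% ± 4.8 and the 22 transfer RNAs 0.99% ± 0.52. Ribosomal RNA genes held 27.9% in empty HA-positive, 27.6% in g4 HA-positive, 26.1% in empty HA-negative and 27.0% in g4 HA-negative nuclei, each with an SD between 2.57 and 6.05 points. The transfer RNA genes held 1.13% ± 0.52 and 1.27% ± 0.65 in HA-positive nuclei (empty and g4) and 0.79% ± 0.24 and 0.77% ± 0.49 in HA-negative nuclei, with overlapping libraries.

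Levels per length were compared as CPM per kilobase of gene. The highest was mt-Atp8, with 6974 ± 2212 (SD over 28 libraries), above every other member of the 15 messenger and ribosomal RNAs in the mean. It was followed by mt-Atp6 at 2795 ± 622, the large ribosomal RNA mt-Rnr2 at 2616 ± 684, mt-Nd4l at 2381 ± 560, the small ribosomal RNA mt-Rnr1 at 2088 ± 766 and the complex IV core subunit gene mt-Co1 at 2002 ± 374. No neighbours among these 5 differed by more than the larger of their SDs.

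A second tier ran from mt-Cytb, the cytochrome b of complex III, at 1461 ± 238, through mt-Co3 at 1398 ± 250 (complex IV), mt-Nd2 at 1373 ± 281 (complex I) and mt-Co2 at 1267 ± 223 (complex IV) to mt-Nd1 at 1207 ± 256 (complex I), again without a gap beyond their SDs. Below it lay mt-Nd4 at 785 ± 173 and mt-Nd5 at 772 ± 142, then mt-Nd3 at 357 ± 118 and last mt-Nd6 at 81.0 ± 63. The steps after mt-Atp8, mt-Co1, mt-Nd1, mt-Nd5 and mt-Nd3 were larger than both SDs and had the same direction in 28 of 28 libraries. The plot of levels per kilobase shows these tiers.

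**Figure D2:**
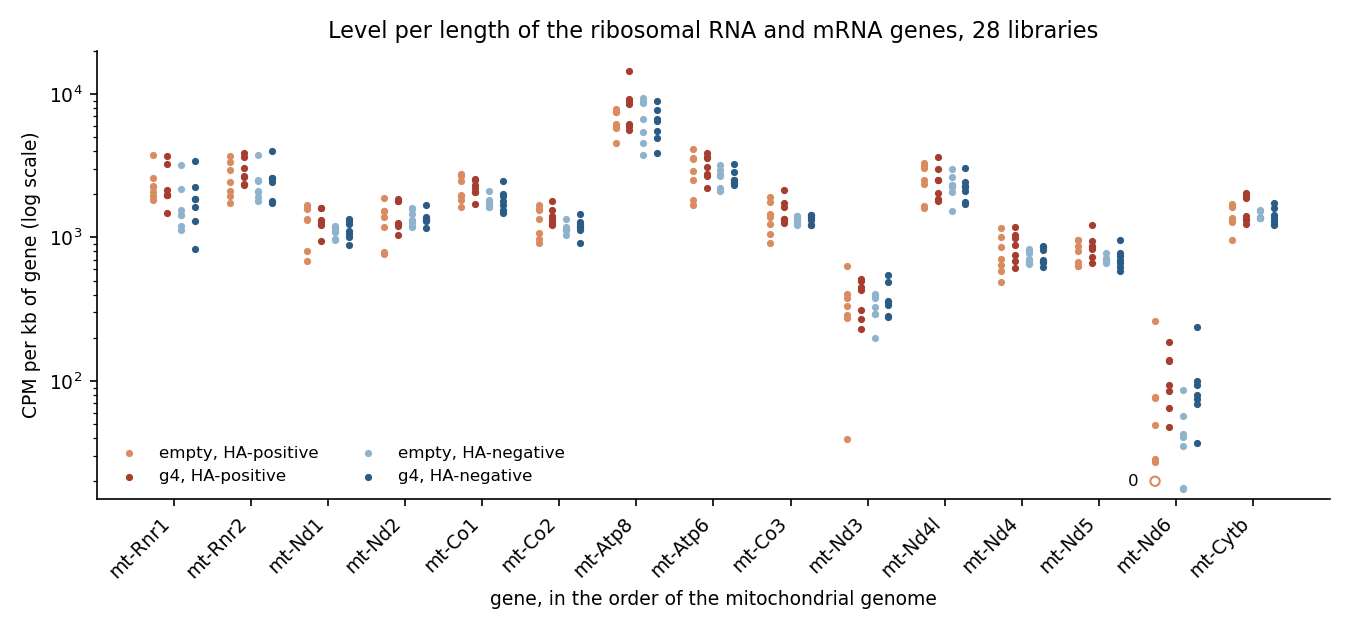
CPM per kilobase of gene (log scale) of the 2 ribosomal and 13 messenger RNA genes in genome order, 1 point per library, coloured by group; the open circle marks the library with 0 counts. mt-Atp8 lies highest (mean 6974) and mt-Nd6, the minus-strand messenger RNA, lowest (mean 81.0), and the groups overlap at every gene.

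Grouped by complex, the 7 complex I genes took 37.1% ± 1.8 of mitochondrial messenger RNA counts, the 3 complex IV genes 31.7% ± 2.3, the 2 ATP synthase genes 20.7% ± 2.8 and mt-Cytb 10.5% ± 0.97 (SD over 28 libraries). Complex IV held 33.2% in empty HA-positive, 31.7% in g4 HA-positive, 30.6% in empty HA-negative and 31.3% in g4 HA-negative nuclei. Complex I held 36.6%, 36.6%, 37.6% and 37.6% in the same order. The groups overlapped in these shares. The mt-Nd6 gene held 0.214% and 0.314% of messenger RNA counts in HA-positive nuclei (empty and g4) and 0.15% and 0.341% in HA-negative nuclei.

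Each gene was then tested between groups with edgeR's quasi-likelihood test over all genes with enough counts, with calls made where the p-value adjusted by Benjamini-Hochberg fell under 0.05. All 15 messenger and ribosomal RNAs passed the count filter in every comparison. Of the 22 transfer RNA genes, 7 passed in at least 1 comparison and mt-Tg alone in all 5, so the other 15 were too low for a test at this depth.

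With g4 against the empty vector in HA-positive nuclei, no member was called: 0 of 19 tested, where 0.0599% of 5011 genes were called in all. At an unadjusted p under 0.05 edgeR had 1 member and DESeq2 and limma voom 0, and those tools called 0 members too. By edgeR 6.71% of all tested genes were under that unadjusted p. Of the 15 messenger and ribosomal RNAs 13 were higher with g4, with a median log2 fold change of 0.15, where 49.2% of all tested genes were higher with a median of -0.01. Members mostly moved together across libraries, so here and below such counts of signs are not counts of independent genes. With library totals in place of TMM factors 15 of 15 were higher.

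That shift rested in part on the libraries with few detected genes. Without the 4 HA-positive libraries under 10000 genes, 8 of 15 were higher with a median of 0.01, and without animal 22 the count was 10 of 15 with a median of 0.05. Leaving out animal 19's g4 HA-positive library made it 14 of 15 with a median of 0.19.

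The largest well-counted difference in HA-positive nuclei was that of mt-Atp8. Its levels in animals 17 to 23 were 1517, 1522, 1202, 1592, 927, 1269 and 1174 CPM with the empty vector and 1251, 1734, 1214, 1808, 1140, 2943 and 1882 CPM with g4. It was higher with g4 in 6 of 7 animals, the groups overlapped, and the g4 library of animal 22 lay far above the rest. The log2 fold change was 0.37 ± 0.17 (SE), with an edgeR p of 0.0395 that became 0.730 after adjustment, and it was 0.19 without animal 22 (adjusted p 0.875) and 0.44 without the g4 library of animal 19 (adjusted p 0.747). Over all alternatives the adjusted p ranged from 0.156 to 0.906.

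Its overlapping neighbour mt-Atp6 had 1963 ± 633 CPM (empty) and 2123 ± 403 CPM (g4) in HA-positive nuclei, a log2 fold change of 0.11 ± 0.17 (adjusted p 0.954, edgeR). The ribosomal RNAs had 2277 ± 612 and 2256 ± 765 CPM for mt-Rnr1 and 4124 ± 1164 and 4655 ± 959 CPM for mt-Rnr2. Complex IV genes differed as little: mt-Co1 had 3378 ± 699 CPM (empty) and 3421 ± 459 CPM (g4), mt-Co2 890 ± 216 and 962 ± 144, and mt-Co3 1091 ± 283 and 1207 ± 249. For mt-Cytb the values were 1624 ± 302 and 1822 ± 387. All of these differences were smaller than the SD of either group.

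Complex I genes in HA-positive nuclei gave the same picture. The pairs for empty and g4 were 1234 ± 382 and 1263 ± 221 CPM for mt-Nd1, 1346 ± 423 and 1514 ± 358 for mt-Nd2, 1074 ± 336 and 1214 ± 287 for mt-Nd4, and 1442 ± 268 and 1593 ± 324 for mt-Nd5. With the empty vector animals 21 and 22 had mt-Nd1 levels of 767 and 652 CPM, below the other 5 at 1267 to 1611, and they were also the lowest for mt-Nd2, at 800.4 and 828 CPM. For mt-Nd4 animals 22 and 23 were lowest, at 670.1 and 804 CPM, and for mt-Nd5 animal 23, at 1148 CPM. The libraries of animals 21 and 22 were among the 4 with few detected genes. The part of library complexity in this spread was not tested.

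In HA-negative nuclei the members were closer still. Between g4 and empty 0 of 17 tested members were called, where 0% of 6262 genes were called in all. At an unadjusted p under 0.05 there was 1 member by edgeR, 1 by DESeq2 and 1 by limma voom, and DESeq2 and voom called 0 members. By edgeR 3.8% of all tested genes were under that unadjusted p. Of the 15 messenger and ribosomal RNAs 11 were higher with g4, with a median log2 fold change of 0.03, against 49.2% of all tested genes and a median of -0.0045. The direction was not stable, since 7 of 15 were higher without animal 20 and 8 of 15 without animal 17.

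The complex III gene mt-Cytb had 1618 ± 93.0 CPM (empty) and 1622 ± 224 CPM (g4) in HA-negative nuclei, and a log2 fold change of -0.00071 ± 0.084 (SE). For mt-Nd4 the levels were 1011 ± 101 and 1026 ± 140 CPM (0.02 ± 0.093), for mt-Nd5 1282 ± 68.1 and 1312 ± 225 (0.03 ± 0.091), and for mt-Co3 1035 ± 62.1 and 1052 ± 71.4 (0.02 ± 0.084). The approximate 95% interval drawn from the SE ran from -0.165 to 0.164 for mt-Cytb and from -0.165 to 0.198 for mt-Nd4. Differences within it could not be seen here. The short complex I genes mt-Nd3 and mt-Nd4l had log2 fold changes of 0.21 ± 0.18 and -0.05 ± 0.12.

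The exception by size was mt-Nd6, the complex I subunit gene of the minus strand. In HA-negative nuclei of animals 17 to 23 it had 9.20, 9.38, 29.5, 18.4, 45.2, 22.2 and 21.2 CPM with the empty vector and 38.6, 48.6, 35.6, 52.2, 41.1, 124 and 19.2 CPM with g4. It was higher with g4 in 5 of 7 animals and the groups overlapped, with the g4 library of animal 22 highest and that of animal 23 lowest in its group. These levels rest on 99 counts over the 7 empty libraries and 214 over the 7 g4 libraries.

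The log2 fold change of mt-Nd6 there was 1.16 ± 0.35 (SE), 2.23-fold, with an edgeR p of 0.00231. Adjusted over all tested genes this became 0.998, and over the alternatives it ranged from 0.126 to 1.00, so the difference did not pass. Without animal 22 the log2 fold change was 0.75, and without animal 21 it was 1.52. In HA-positive nuclei mt-Nd6 had 136, 14.2, 39.9, 39.4, 0, 25.7 and 14.8 CPM with the empty vector and 48.3, 71.3, 96.7, 33.7, 24.7, 72.9 and 44.1 CPM with g4, a log2 fold change of 0.57 ± 0.53 (adjusted p 0.894). The highest g4 value is that of animal 19, without which the log2 fold change was 0.36 ± 0.56 (adjusted p 0.980). It was thus higher with g4 in 5 of 7 animals in each fraction, and the empty library of animal 17 stood far above the others of its group. The 0 was in the empty HA-positive library of animal 21, where 3 counts would be 7.85 CPM on the unscaled library total.

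Whether the difference between g4 and empty depended on the fraction was tested in 1 model of all 28 libraries. No member was called (0 of 22 tested, 0% of 7197 genes called in all), and edgeR, DESeq2 and limma voom each had 0 members at an unadjusted p under 0.05. By edgeR 4.96% of all tested genes were under that unadjusted p. The comparison was positive for 10 of the 15 messenger and ribosomal RNAs with a median of 0.08 on the log2 scale, against 51.7% and 0.02 for all tested genes. Without animal 22 it was positive for 3 of 15, and without the 4 libraries of few detected genes for 4 of 15. For mt-Nd6 it was -0.59 ± 0.71 and for mt-Atp8 0.48 ± 0.32. Leaving out the g4 HA-positive library of animal 19 gave 11 of 15 with a median of 0.09. The values were then -0.80 ± 0.72 for mt-Nd6 and 0.55 ± 0.33 for mt-Atp8.

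**Figure D3:**
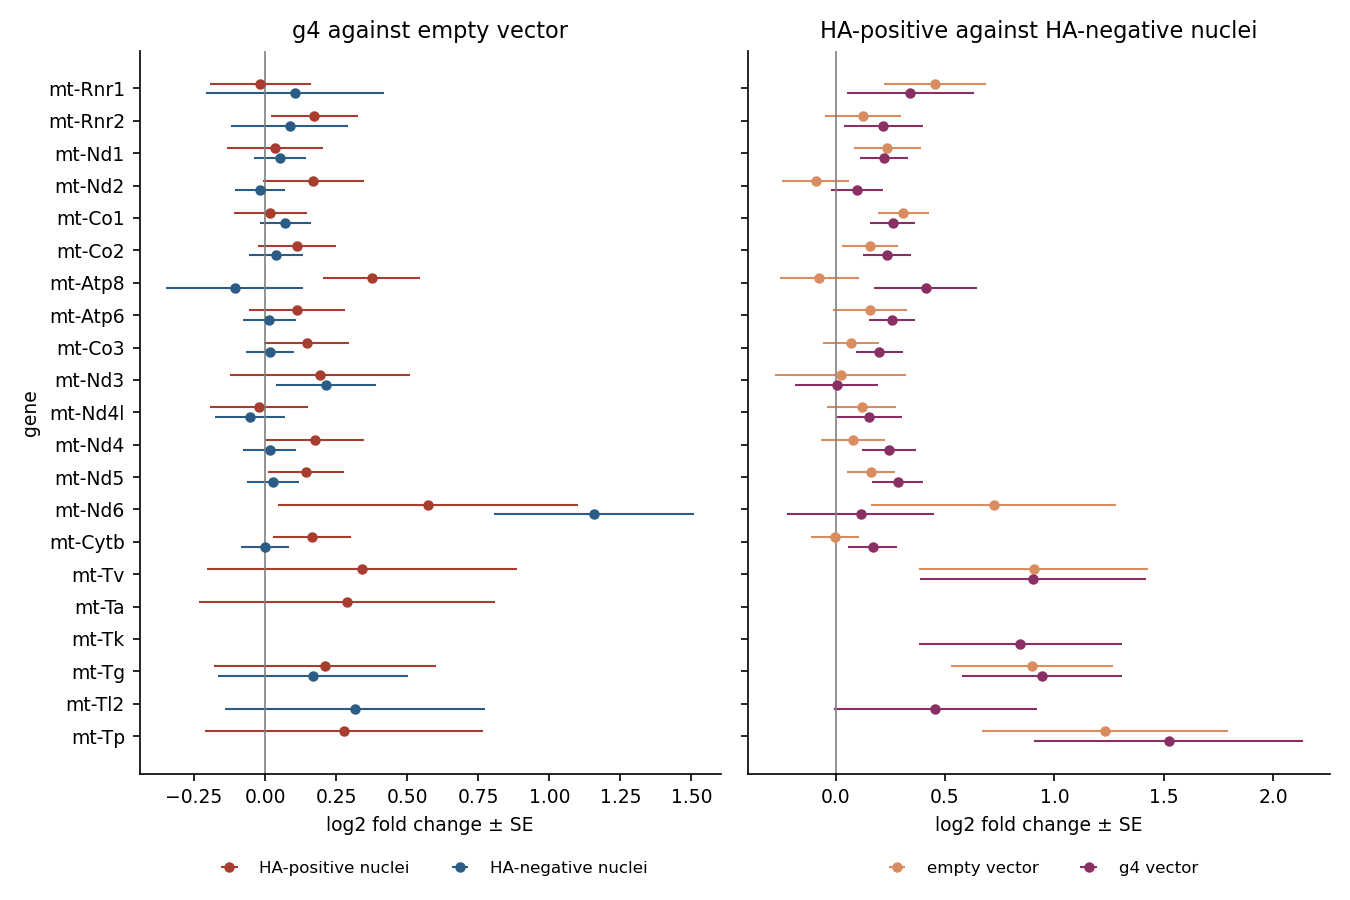
Log2 fold changes (points) with SE (bars) of the tested members from edgeR, for g4 against empty vector in each sorted fraction (left) and for the HA-positive over the HA-negative fraction, by vector (right). Most points lie near 0 on the left, mt-Nd6 reaches 1.16 in HA-negative nuclei with an adjusted p of 0.998, and the transfer RNA genes lie furthest right of 0 in the comparison of fractions.

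HA-positive nuclei are those that stained for tagged Cas9, and the 2 fractions differ in the cells they hold. Markers of inhibitory neurons were called higher in HA-positive nuclei for 6 of 7 genes with the empty vector and 7 of 7 with g4. Their summed level was 1827 to 3480 CPM in empty HA-positive and 1365 to 2921 in g4 HA-positive libraries, against 668 to 892 and 545 to 947 in the HA-negative ones. Oligodendrocyte markers were called lower for 6 of 6 tested genes with the empty vector and 5 of 6 with g4, with sums of 41.0 to 104 (empty) and 96.0 to 1342 (g4) CPM in HA-positive, then 1073 to 1925 (empty) and 1337 to 2463 (g4) CPM in HA-negative libraries. Microglial markers summed to 2.85 to 38.6, 2.74 to 277, 198 to 439 and 299.6 to 511 CPM in the same order, and of these 5 genes Cx3cr1, P2ry12 and Gpr34 were at 0 in every HA-positive library with the empty vector. Markers of excitatory neurons averaged 1335, 1541, 1908 and 1900 CPM and those of astrocytes 854, 1321, 1259 and 1320 CPM. The fractions also differed in 7SL RNA, the RNA of the signal recognition particle, with 6.70% and 6.39% of counts in HA-positive against 8.43% and 9.65% in HA-negative nuclei (empty and g4). The part of these in any difference below was not tested.

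Between fractions with the empty vector 0 of 18 tested members were called, where 6.99% of 5538 genes were. At an unadjusted p under 0.05 there were 3 members by edgeR, 4 by DESeq2 and 3 by limma voom, and neither DESeq2 nor voom called a member. With g4 0 of 20 were called, where 6.4% of 6264 genes were, and the unadjusted counts were 6, 6 and 4 in the same order, again with 0 calls by each tool. Of all tested genes 19.2% (empty) and 17.4% (g4) had an unadjusted p under 0.05 by edgeR. These comparisons called 387 and 401 genes in all. With the animal as a block each of them called 1 member, mt-Rnr1 with the empty vector (adjusted p 0.0486, edgeR) and mt-Atp8 with g4 (adjusted p 0.0386). The share of all genes called with the block was not set beside these calls.

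Differences of the members had 1 direction for the most part. As members mostly moved together across libraries, their signs are not independent of each other, and these counts were not tested. Of the 15 messenger and ribosomal RNAs 12 were higher in HA-positive nuclei with the empty vector (median log2 fold change 0.13) and 15 of 15 with g4 (median 0.22), while 50.3% and 50.6% of all tested genes were higher, with medians of 0.0047 and 0.0061. With DESeq2 size factors the counts were 12 and 14, and with library totals 11 and 15. With the empty vector the direction rested on animal 17, without which 7 of 15 were higher with a median of -0.01, and it was 15 of 15 without animal 22. With g4 leaving out any animal left 14 or 15 of 15 higher, and so did leaving out the g4 HA-positive library of animal 19.

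Among messenger RNAs mt-Co1, whose product is the catalytic core of complex IV, came closest to a call. With the empty vector its lowest, median and highest levels were 2507, 3053 and 4291 CPM in HA-positive and 2511, 2616 and 3274 CPM in HA-negative nuclei. With g4 they were 2629, 3440 and 3965 against 2287, 2766 and 3851 CPM. The groups overlapped, with 5 of 7 animals higher with the empty vector and 6 of 7 with g4. The log2 fold changes were 0.31 ± 0.12 (SE, adjusted p 0.110, edgeR) and 0.26 ± 0.10 (adjusted p 0.152). The latter was 0.27 without animal 19's HA-positive library (adjusted p 0.132).

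Without the HA-positive libraries under 10000 detected genes, which removed 3 empty and 1 g4 library, edgeR called 3 members with the empty vector. These were mt-Co1 at 0.34 (adjusted p 0.0471), mt-Nd1, a core subunit gene of complex I, at 0.42 (adjusted p 0.0103), and mt-Tp at 1.59 (adjusted p 0.0306). With g4 the same step left 0 members called. These calls were not set against the share of all genes called after the same step. Full libraries gave mt-Nd1 1234 ± 382 CPM in empty HA-positive and 1042 ± 88.6 in empty HA-negative nuclei, with the 2 lowest HA-positive values in the libraries of animals 21 and 22 that the step removed.

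The other messenger RNAs with an unadjusted p under 0.05 came from the g4 comparison. HA-positive and HA-negative nuclei had 2123 ± 403 and 1776 ± 232 CPM of mt-Atp6 (log2 0.26 ± 0.11, adjusted p 0.167), 962 ± 144 and 819 ± 115 of mt-Co2 (0.23 ± 0.11, adjusted p 0.239) and 1593 ± 324 and 1312 ± 225 of mt-Nd5 (0.28 ± 0.12, adjusted p 0.173). The first and last of these were higher in 5 of 7 animals and mt-Co2 in 6 of 7. Without animal 19's HA-positive library they were 0.29, 0.23 and 0.26 (adjusted p 0.103, 0.245 and 0.227). With the empty vector the same genes had 0.16 ± 0.17, 0.16 ± 0.13 and 0.16 ± 0.11. Those for mt-Cytb were -0.00089 ± 0.11 with the empty vector and 0.17 ± 0.11 with g4, and for mt-Nd2 -0.09 ± 0.15 and 0.10 ± 0.12.

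For mt-Atp8 the fraction comparison gave -0.08 ± 0.18 with the empty vector and 0.41 ± 0.24 with g4 (adjusted p 0.417, edgeR). The libraries of an animal come from the same brain, and a fit that blocked on animal gave 0.39 for g4, which was called (adjusted p 0.0386). Levels of mt-Atp8 in g4 HA-negative nuclei were 1131, 1005, 792, 1576, 1355, 1811 and 1328 CPM in animals 17 to 23. They were below the g4 HA-positive levels given above in 6 of 7 animals, although the groups overlapped.

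The ribosomal RNAs were higher in HA-positive nuclei on average too. For mt-Rnr1, the small ribosomal RNA, animals 17 to 23 had 3557, 2149, 2176, 2469, 1987, 1742 and 1860 CPM in empty HA-positive and 1484, 1078, 2085, 3064, 1148, 1360 and 1372 CPM in empty HA-negative nuclei. Animal 20 was the exception to a higher HA-positive level, which held in 6 of 7. The log2 fold change was 0.45 ± 0.23 (SE, adjusted p 0.318, edgeR). It was called with the animal as a block, at 0.51 (adjusted p 0.0486), and without animal 20, at 0.65 (adjusted p 0.0212).

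With g4 mt-Rnr1 had 2256 ± 765 CPM in HA-positive and 1785 ± 773 in HA-negative nuclei (0.34 ± 0.29, adjusted p 0.636). With the animal as a block it was 0.39 ± 0.13 and was not called (adjusted p 0.093, edgeR). The large ribosomal RNA mt-Rnr2 differed less, with 4124 ± 1164 and 3763 ± 1034 CPM with the empty vector (0.13 ± 0.17) and 4655 ± 959 and 4010 ± 1194 with g4 (0.22 ± 0.18). Blocking on animal gave mt-Rnr2 0.12 ± 0.12 with the empty vector and 0.24 ± 0.11 with g4 (adjusted p 0.658 and 0.222, edgeR). The ratio of mt-Rnr1 to mt-Rnr2 counts was 0.561 ± 0.074 in empty HA-positive and 0.429 ± 0.065 in empty HA-negative nuclei, higher in HA-positive nuclei in 5 of 7 animals. With g4 it was 0.477 ± 0.075 and 0.432 ± 0.078. The ribosomal RNAs are transcribed next to each other on the same strand, with mt-Tv between them, and the groups overlapped in this ratio.

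Transfer RNA genes are short (59 to 75 bases) and gave few counts, 36 to 337 per library and 3254 in all 28. The most counted were mt-Tg with 594, mt-Tp with 381 and mt-Tv with 358, and the least was mt-Tc with 12. Over the 22 genes the share of library counts was 0.025% ± 0.012 in empty HA-positive, 0.032% ± 0.017 in g4 HA-positive, 0.016% ± 0.0057 in empty HA-negative and 0.016% ± 0.0096 in g4 HA-negative nuclei. It was higher in HA-positive nuclei in 6 of 7 animals with the empty vector and 5 of 7 with g4, and the groups overlapped.

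For mt-Tp the levels in animals 17 to 23 were 41.9, 22.3, 68.4, 37.8, 0, 21.7 and 51.9 CPM in empty HA-positive and 25.3, 24.4, 5.89, 5.24, 2.32, 18.5 and 20.0 CPM in empty HA-negative nuclei. With g4 they were 11.6, 65.8, 27.0, 67.4, 65.9, 32.7 and 19.6 against 5.51, 0, 0, 7.46, 45.2, 18.6 and 16.0 CPM. The HA-positive level was the higher one in 5 of 7 animals with the empty vector and in 7 of 7 with g4, and the groups overlapped. Log2 fold changes were 1.23 ± 0.56 (SE, adjusted p 0.217, edgeR) and 1.52 ± 0.62 (adjusted p 0.187), the latter against a group of which 2 libraries had 0 counts. With g4 it was called without the count filter (1.51, adjusted p 0.00772) and without animal 21 (2.09, adjusted p 0.0361), but not in the full comparison. Without animal 19's HA-positive library it was 1.61 (adjusted p 0.174).

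For mt-Tg the lowest, median and highest levels were 26.4, 34.9 and 99.7 CPM in empty HA-positive against 15.7, 27.6 and 38.9 in empty HA-negative nuclei. With g4 they were 14.7, 56.1 and 111 against 13.6, 22.4 and 52.8 CPM. The groups overlapped, with 6 of 7 animals higher with the empty vector and 5 of 7 with g4. The log2 fold changes were 0.90 ± 0.37 (adjusted p 0.157, edgeR) and 0.94 ± 0.37 (adjusted p 0.145), and without animal 23 the g4 value was 1.30 and was called (adjusted p 0.0336). It was 0.95 without animal 19's HA-positive library (adjusted p 0.152).

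For mt-Tv the changes were 0.90 ± 0.53 and 0.90 ± 0.52 (adjusted p 0.366 and 0.398). The plot of single genes shows these 3 transfer RNAs with mt-Nd6.

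**Figure D4:**
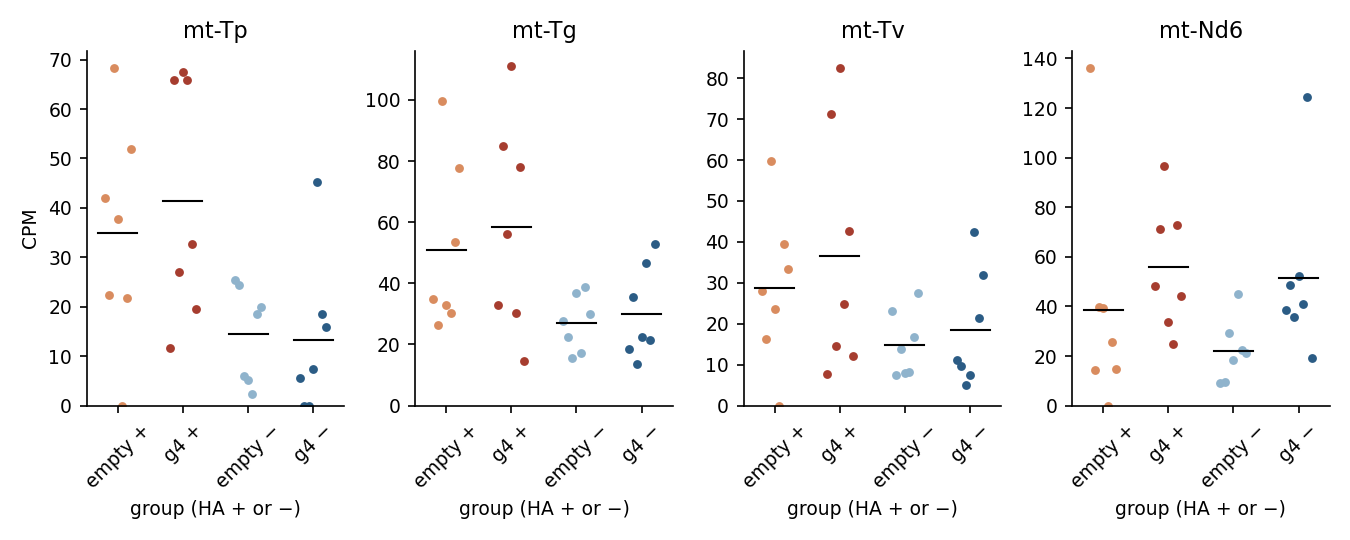
CPM of mt-Tp, mt-Tg, mt-Tv and mt-Nd6 in each library of the 4 groups (empty or g4 vector, + for HA-positive and − for HA-negative nuclei), with the group mean as a line. mt-Tp, mt-Tg and mt-Tv have higher means in HA-positive nuclei with overlapping libraries, and mt-Nd6 is highest in 1 empty HA-positive library at 136 CPM.

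By strand, the 14 transfer RNA genes of the plus strand summed to 173 ± 71.6 CPM (empty) and 222 ± 134 CPM (g4) in HA-positive and to 117 ± 41.1 and 122 ± 61.8 CPM in HA-negative nuclei. The 8 of the minus strand summed to 83.3 ± 50.7 and 97.1 ± 51.7 CPM in HA-positive and to 44.0 ± 16.1 and 34.5 ± 35.9 CPM in HA-negative nuclei. Both strands had the higher means in HA-positive nuclei. Their sums were not tested, being sums over members.

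Members also varied by animal in ways that crossed the groups. The ribosomal RNA share of mitochondrial counts was highest in animal 20 in all 4 groups, at 31.0% to 38.3%, where the means of the other animals ran from 23.5% to 28.1%. The same animal had the highest share of cytosolic ribosomal RNA in 3 of 4 groups, with a mean of 36.4% of all counts against 19.9% to 30.8% in the others. The part of ribosomal RNA removal in this was not tested.

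The count ratio of mt-Atp8 to mt-Atp6 was highest in animal 22 in all 4 groups, at 1.05 to 1.19. In the other animals its mean over the 4 libraries ran from 0.572 in animal 19 to 0.827 in animal 21. The group means were 0.715 ± 0.20 in empty HA-positive, 0.807 ± 0.23 in g4 HA-positive, 0.783 ± 0.22 in empty HA-negative and 0.727 ± 0.19 in g4 HA-negative nuclei, closer together than the animals were. No test was made between animals, which were singled out after their values had been seen.

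**Figure D5:**
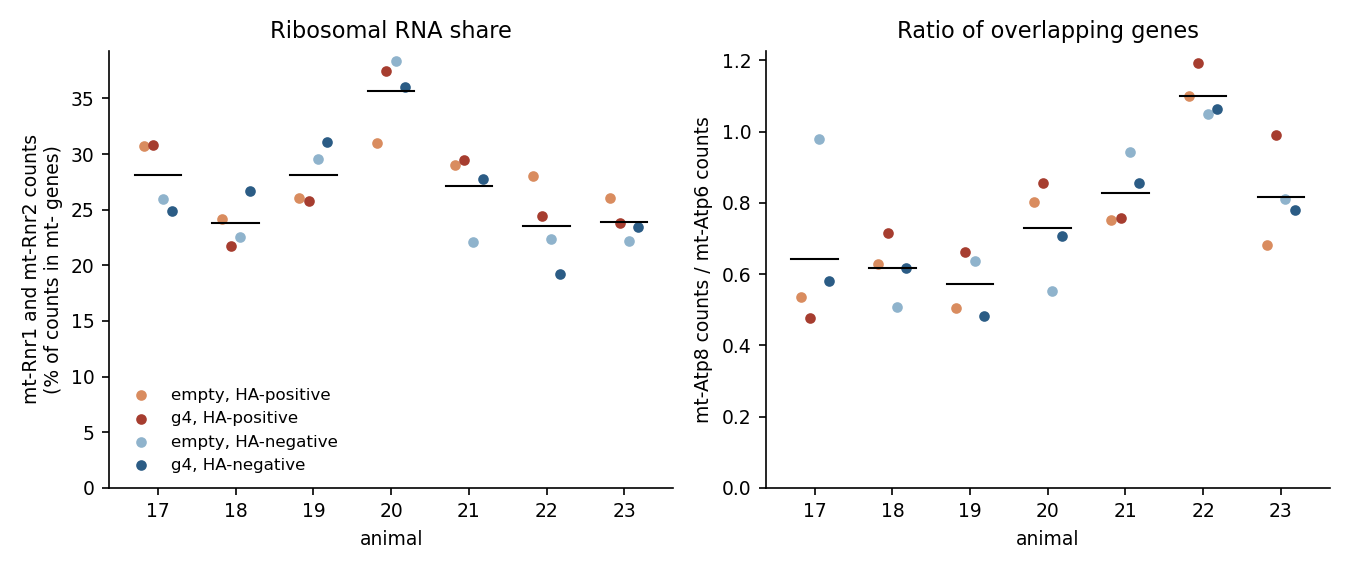
Left, mt-Rnr1 and mt-Rnr2 counts as a percent of counts in all 37 genes; right, the ratio of mt-Atp8 to mt-Atp6 counts; 1 point per library by animal, coloured by group, with the mean of the 4 libraries as a line. Animal 20 is highest in all 4 groups on the left (mean 35.7%) and animal 22 on the right (mean 1.10).

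Across the 28 libraries the members mostly moved together. Spearman's correlation of log2 CPM with the mean of the other messenger RNAs was 0.86 for mt-Nd4, 0.84 for mt-Co2 and 0.79 for mt-Nd1 and mt-Atp6. It was lowest for mt-Atp8 and mt-Nd4l at 0.35. The ribosomal RNAs had 0.40 for mt-Rnr1 and 0.57 for mt-Rnr2. These are descriptions over libraries that share animals, scaling and depth. Among 4786 genes outside the set, those with a pattern most similar to the mean of the 13 messenger RNAs included Pygo1 (0.73), Mta3 (0.68), Snx13 (0.67) and Btbd1 (0.67).

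Nuclear genes that serve the mitochondrial genome gave few calls. Of 30 genes for mitochondrial transcription and RNA handling 3 to 11 were tested in the 5 comparisons and 0 were called, too few to set apart from the shares of all genes called (at most 0.0599% between vectors, and 6.99% and 6.4% between fractions). Lrpprc, which stabilises mitochondrial messenger RNAs, had 102 ± 68.6 and 82.8 ± 17.1 CPM in HA-positive and 84.0 ± 26.9 and 83.4 ± 39.5 CPM in HA-negative nuclei (empty and g4). Grsf1, a protein of mitochondrial RNA granules, had 52.9 ± 32.3, 41.4 ± 14.4, 28.9 ± 16.0 and 31.5 ± 15.2 CPM in the same order. Tfam, which packages mitochondrial DNA and activates its transcription, passed the filter in the first comparison with 30.3 ± 12.7 and 24.3 ± 13.6 CPM in empty and g4 HA-positive nuclei (log2 -0.34 ± 0.44).

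Of 8 genes for mitochondrial DNA replication only Polg, the catalytic subunit of the mitochondrial polymerase, was tested, and it was not called in any of the 5 comparisons. Its log2 fold changes were -0.13 ± 0.41 and -0.17 ± 0.32 for g4 against empty in HA-positive and HA-negative nuclei. Of 78 genes of the mitochondrial ribosome 11 to 28 were tested and 0 were called, 0 of 11 and 0 of 22 between fractions, where 6.99% and 6.4% of all genes were. Among them Mrpl48 had 2481 ± 1142 and 1263 ± 832 CPM in HA-positive (empty and g4) and 982 ± 803 and 1080 ± 709 CPM in HA-negative nuclei.

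Of 7 regulators of mitochondrial biogenesis 3 were tested in each comparison of fractions. Of these Ppargc1a, the coactivator that drives it, was called higher in HA-positive nuclei with both vectors. It had 141 ± 57.2 and 51.3 ± 16.8 CPM with the empty vector (log2 1.43 ± 0.27, adjusted p 0.000675, edgeR) and 107 ± 52.1 and 46.5 ± 24.3 CPM with g4 (1.23 ± 0.33, adjusted p 0.0276). Without animal 19's HA-positive library the g4 value was 1.36 ± 0.31 (adjusted p 0.00557). Between g4 and empty its log2 fold changes were -0.39 ± 0.28 in HA-positive and -0.18 ± 0.29 in HA-negative nuclei, and 0 of 2 and 0 of 4 tested regulators were called there.

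The nuclear-encoded partners of the mitochondrial subunits were compared as well. They were picked by the start of their names (Nduf, Uqcr, Atp5, Sdh and a letter from a to d, Cox4 to Cox8, Cycs and Cyc1). Such names also take in rows that are not subunit genes, such as Cox5b-ps. Of 98 genes with these names 66 were tested with the empty vector, and 57 of them were higher in HA-positive nuclei. Their median log2 fold change was 0.43, where 50.3% of all tested genes were higher. With g4 73 were tested and 61 were higher with a median of 0.33. The calls were 5 with the empty vector (7.58% of those tested, against 6.99% of all genes) and 3 with g4 (4.11% against 6.4%), near or below the shares of all genes, and all were higher in HA-positive nuclei. The called genes with the empty vector were Cox5a (1.67 ± 0.41), Ndufb8 (1.24 ± 0.34), Cox5b (0.87 ± 0.23), Cox7b (0.86 ± 0.27) and Atp5a1 (0.47 ± 0.14), and with g4 a row named Atp5o_1 (1.69 ± 0.44), Atp5b (0.65 ± 0.13) and Atp5a1 (0.61 ± 0.14). With g4 and without animal 19's HA-positive library Cox5a had -0.14 ± 0.38, Ndufb8 0.87 ± 0.38, Cox5b 0.44 ± 0.25 and Cox7b 0.695 ± 0.36. These 4 genes were not called there, while the 3 genes called with g4 stayed called.

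Atp5a1 and Atp5b encode the catalytic core subunits of the ATP synthase. Atp5a1 had 349 ± 48.6 and 252 ± 35.5 CPM with the empty vector (adjusted p 0.0342, edgeR) and 329 ± 63.6 and 216 ± 30.6 CPM with g4 (adjusted p 0.00497). The mitochondrial subunit genes of the same enzyme, mt-Atp6 and mt-Atp8, were not called in either comparison without the animal block, and mt-Atp8 was called with it for g4. Whether the nuclear and the mitochondrial genes differed in their change was not tested. Between g4 and empty 0 of 64 and 0 of 69 tested nuclear-encoded genes were called, with medians of -0.16 and -0.08.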

How the data were processed

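RNA of sorted nuclei was measured in 28 libraries. The authors deposited raw counts for each gene and library, with whole numbers in the files, on GRCm38 per the submitters' processing notes. Which aligner and counter were used, with which strand setting, rule for multiply mapped reads or molecular identifiers, is not given in the sources used here. Cells without a value were read as 0, and 1 entry that names no gene was left out. The RNA input was in picograms, and the labels do not say which RNA the library kit removed.

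Groups and animal numbers came from the sample titles. For animals 21 to 23 the sample descriptions tie each title to a table column numbered 1 higher. Replicates are separate animals, and the 4 libraries of an animal share its number and brain, so they pair by design. Deviations of same-numbered libraries from their group means correlated at -0.12 to 0.14 across 4786 genes (median 0.01 to 0.06). Single members can differ from this. Between fractions with g4 the animal block lowered the SE of mt-Atp8 from 0.24 to 0.11 and of mt-Rnr1 from 0.29 to 0.13. For mt-Tg the SE rose from 0.37 to 0.42.

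All genes that passed filterByExpr were fitted with edgeR 4.0.16 in R 4.3.3 (TMM factors, quasi-likelihood test, robust, two-sided), with Benjamini-Hochberg adjustment over all tested genes and a threshold of 0.05. DESeq2 1.42.0, limma 3.58.1 voom, other scalings, no count filter, the animal as a block and left-out libraries were alternatives. CPM used TMM factors over the 28 libraries, while shares and floors used library totals. The fit was tested on simulated data. Sequences and positions came from the GENCODE annotation of GRCm38, and copies were searched with BLAST 2.17.0. Intervals (Wilson score) and floors of 3 counts cover counting error only.

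Members, gene lists and tests were chosen with earlier results of these data known. Genes named in full were the 2 ribosomal RNAs, mt-Nd1, mt-Nd2, mt-Nd4, mt-Nd5, mt-Nd6, mt-Cytb, the mt-Co genes, mt-Atp6 and any called member; others, such as mt-Atp8 and the transfer RNAs, were singled out after their values had been seen. Of a gene list, called members were named (at most 6), otherwise the 3 with the highest mean. Of the 5 genes with the most similar pattern, 1 is not reported here.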

Additional observations from a re-analysis of the deposited data

Results flagged for a closer look

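Among 60 gene and group combinations of the ribosomal and messenger RNA genes, 8 had 1 library whose distance from the nearest other library took up most of the range of its group (Dixon's criterion at 95% for 7 samples), where chance flags about 1 in 20 groups. Of the ribosomal RNAs, mt-Rnr1 in the empty HA-positive library of animal 17 had 3557 CPM against 1742 to 2469 in the other 6. For mt-Rnr2 the HA-negative libraries of animal 20 had 5902 CPM with the empty vector (others 2849 to 4004) and 6365 CPM with g4 (others 2735 to 4112).

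Of the complex I genes, mt-Nd2 in the g4 HA-negative library of animal 17 had 1752 CPM (others 1205 to 1440), and mt-Nd5 in the empty HA-negative library of animal 19 had 1418 CPM (others 1213 to 1302). For mt-Nd6 the empty HA-positive library of animal 17 had 136.3 CPM (others 0 to 39.9), and the g4 HA-negative library of animal 22 had 124.3 CPM (others 19.2 to 52.2). Of the complex IV genes, mt-Co1 in the empty HA-negative library of animal 23 had 3274 CPM (others 2511 to 2796). No difference between effects in the 2 fractions was flagged (0).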

How the results depend on the processing

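The number of members called was 0 in each of the 5 comparisons and stayed 0 for g4 against empty in both fractions and for the difference of effects under all alternatives run. Between fractions with the empty vector it was 1 with the replicate block by animal (mt-Rnr1, adjusted p 0.0486), 0 to 1 when each animal was left out (1 without animal 20) and 3 without the HA-positive libraries under 10000 detected genes. With g4 it was 1 without the count filter (mt-Tp, adjusted p 0.00772), 1 with the replicate block by animal (mt-Atp8, adjusted p 0.0386) and 0 to 1 when each animal was left out (1 without animal 21 and 1 without animal 23). The cause was not tested, and calls under an alternative were not set against the share of all genes called under it. The replicate block changed no other call among the members.

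For the difference of effects the median over tested members turned from 0.09 to -0.0279 without animal 22 (-0.0279 to 0.195 when each animal was left out). It turned to -0.0545 without the libraries of few detected genes. In the other 4 comparisons the median over all tested members kept its sign. Over the 15 messenger and ribosomal RNAs alone it turned to -0.0097 between fractions with the empty vector without animal 17. It also turned to -0.0018 for g4 against empty in HA-negative nuclei without animal 20. Dropping the count filter moved the median of all genes to 0.14, 0.01, 0.12, -0.18 and -0.04 in the 5 comparisons. Log2 ratios of the summed shares ran over all alternatives from 0.06 to 0.26, -0.01 to 0.09, 0.06 to 0.21 and 0.22 to 0.35. They changed by less than 1 SD of the log2 shares of single libraries in a group. That SD is a loose limit for a ratio of means, and the ratio of g4 to empty in HA-negative nuclei changed sign. Depth limits the transfer RNAs and mt-Nd6, with few counts per library.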

Other observations

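The ratio of mt-Nd4l to mt-Nd4 counts was highest in animal 18 in 3 of 4 groups, with a mean of 0.881 over its 4 libraries, where the means of the other animals ran from 0.564 to 0.719. These genes share 7 bases and lie on the same strand.

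Malat1, an abundant nuclear noncoding RNA, took 0.80% ± 0.22 of counts in empty HA-positive, 1.13% ± 0.33 in g4 HA-positive, 1.25% ± 0.32 in empty HA-negative and 1.10% ± 0.13 in g4 HA-negative nuclei (SD, n = 7). It was called lower in HA-positive nuclei with the empty vector (log2 -0.63 ± 0.15, adjusted p 0.00675, edgeR), in 7 of 7 animals. In that comparison 12 of 15 mitochondrial messenger and ribosomal RNAs had the opposite sign and 0 were called. With g4, where 15 of 15 of them were higher in HA-positive nuclei, Malat1 was not called (log2 0.0031 ± 0.15, adjusted p 0.997, edgeR).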
